A study of Mus musculus with 51 samples.

Results

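The apolipoprotein genes Apoa1, Apoc3, Apoa4 and Apoa5 lie next to each other on mouse chromosome 9, in that order, with no other protein-coding gene between them in the reference gene table. They were chosen by their position, as the 4 rows of the expression matrix that carry these symbols, out of 33773 rows in all. All 4 were found and all 4 passed the filter on low values in hepatocytes and in liver. In liver, Apoa4 passed that filter only through the 2 control libraries.

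Apolipoproteins are the protein part of lipoproteins, the particles that carry lipids in blood, and the liver makes and secretes most of them. Apoa1 encodes the main protein of high-density lipoprotein (HDL), which takes up cholesterol from tissues and activates the enzyme LCAT. The other members act mainly on triglyceride-rich particles: Apoc3 protein slows their breakdown by lipoprotein lipase and their uptake by the liver, Apoa5 protein promotes their breakdown, and Apoa4 protein, made chiefly by the small intestine but also by mouse liver, takes part in lipid secretion. FoxA1, FoxA2 and FoxA3 are forkhead transcription factors that bind liver enhancers, and HNF4a is a nuclear receptor required for the expression of many hepatocyte genes.

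The study measured RNA in mouse hepatocytes that lacked FoxA factors and in mouse livers labelled for loss of HNF4a. In the FoxA triple null group (4 libraries), adult animals with FoxA1L/L, FoxA2 L/L and FoxA3-/- alleles received, at 8 weeks, AAV8 virus with Cre recombinase under the hepatocyte-specific Tbg promoter. The FoxA3 null group (4 libraries) is named by genotype alone; the series' design describes controls with the same alleles given a virus with GFP, and the labels do not state that these are the same animals. Both groups thus lack FoxA3, and they differ in the deletion of FoxA1 and FoxA2. Whether they also differ in virus, floxed alleles or age is not given in the labels. The FoxA1/A2 lox group (3 libraries, called lox) and the FoxA1/A2 Cre alfp group (4 libraries, called Cre alfp) carry no FoxA3 deletion in their names; the time of deletion, the cells in which Cre acts and the ages of these groups are not given in the labels. The HNF4a control group has 2 libraries and the HNF4a null group 4, both from whole liver, and the series' design places the deletion in adult liver. The labels do not say whether libraries came from separate animals, so p-values measure the spread between these libraries only.

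Levels are given as RPKM, reads scaled by gene length and by the size of the library, so that levels of different genes can be compared per length. Absolute depth is unknown; relative depth, read from the steps between low values, spanned 1 in the shallowest liver library to 4.08 in the deepest Cre alfp library. Foxa3 RPKM averaged 0.00449 in FoxA3 null and 0.00444 in triple null against 25.0 in lox and 31.1 in Cre alfp. Foxa2 averaged 0.366 in triple null against 13.7 in FoxA3 null, and 1.09 in Cre alfp against 12.5 in lox. Foxa1 averaged 3.28 in triple null against 8.50 in FoxA3 null, and 1.24 in Cre alfp against 6.72 in lox. Hnf4a went against its label: it ranged from 487 to 545 in the 4 libraries labelled HNF4a null and from 118 to 126 in the controls, and which exons were deleted is not stated. The row AC113316.1 separated the hepatocyte libraries by set, at 116631 to 463081 in lox and Cre alfp and at 0 in FoxA3 null and triple null. Library set and FoxA3 genotype therefore cannot be told apart in any comparison that crosses them. Of 10 hepatocyte markers, 9 had a row, and their summed RPKM was 31690 to 44192 in FoxA3 null, 15304 to 20743 in triple null, 33884 to 37788 in lox and 26086 to 31975 in Cre alfp.

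The promoters of the 3 members present in the RefSeq promoter table (build GRCm38.p6) are shown because their responses in triple null differed. Against FoxA3 null, Apoa1 and Apoa5 were lower there and Apoa4 was higher. With FoxA3 present, Apoa1 was lower in Cre alfp than in lox, while Apoa5 overlapped. Each window spans 300 bases of the + strand around the start site. Capitals mark matches to a forkhead-type motif (TGTTTGC) or to an HNF4-type motif (CAAAGNNCA), both searched on both strands. The forkhead variant TGTTTAC was searched in the same way, as was the variant TATTTAC and likewise the variant TATTTGC; these windows held none of the 3. The marked matches did not overlap each other.
Apoa1 (chr9:46228380-46228679): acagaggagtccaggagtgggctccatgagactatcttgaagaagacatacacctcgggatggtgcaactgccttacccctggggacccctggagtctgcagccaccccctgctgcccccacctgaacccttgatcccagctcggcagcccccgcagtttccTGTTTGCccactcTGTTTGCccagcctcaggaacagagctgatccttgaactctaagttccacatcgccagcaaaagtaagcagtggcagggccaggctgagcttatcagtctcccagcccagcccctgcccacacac
Apoa4 (chr9:46240594-46240893): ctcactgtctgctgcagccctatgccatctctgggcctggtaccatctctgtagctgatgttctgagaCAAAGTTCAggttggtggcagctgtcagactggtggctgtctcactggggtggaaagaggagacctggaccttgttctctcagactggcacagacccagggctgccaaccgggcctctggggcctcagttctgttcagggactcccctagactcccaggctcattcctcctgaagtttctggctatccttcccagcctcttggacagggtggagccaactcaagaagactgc
Apoa5 (chr9:46268358-46268657): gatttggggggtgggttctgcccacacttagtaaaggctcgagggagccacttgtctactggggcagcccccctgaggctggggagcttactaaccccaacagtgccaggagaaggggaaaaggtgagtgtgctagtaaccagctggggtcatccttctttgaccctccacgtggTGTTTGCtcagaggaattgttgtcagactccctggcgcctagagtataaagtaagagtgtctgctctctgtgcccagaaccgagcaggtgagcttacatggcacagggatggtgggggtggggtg
The Apoa1 window held TGTTTGC at 2 places, which start at -88 and -75 relative to the start site. The Apoa5 window held the same letters once, at -75; the table gives Apoa5 a second window (chr9:46268383-46268682), from a later start site, in which they lie at -100. In turn, the Apoa4 window held CAAAGTTCA at -182 and no forkhead-type match. Of 32851 windows of this length, 5.07% held TGTTTGC, 13.5% held any of the 4 forkhead variants and 6.36% held CAAAGNNCA. These matches are letters in a window and show no binding. Apoc3 was not in the table.

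The first comparison asks what happens to the cluster when FoxA1 and FoxA2 are deleted in hepatocytes that already lack FoxA3. The cluster split into 2 pairs that moved in opposite directions: Apoa1 and Apoa5 fell, and Apoc3 and Apoa4 rose. In these bulk samples, fewer cells and less RNA per cell cannot be told apart.

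Apoa1, the HDL protein, stood at 5366, 6933, 9209 and 7348 RPKM in FoxA3 null hepatocytes and at 222, 176, 187 and 171 in triple null hepatocytes. Every triple null library was far below every FoxA3 null library. The group means were 7214 ± 1580 and 189 ± 23.0 RPKM (SD, n = 4 each), 38.2-fold lower in triple null. On the scale of log2(RPKM + 1), Apoa1 differed by -5.23 ± 0.21 (SE; adjusted p = 3.72e-10 by limma), the 17th most negative of 11500 genes tested.

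Apoa5, which promotes triglyceride breakdown, stood at 481, 501, 472 and 536 RPKM in FoxA3 null and at 18.9, 38.2, 42.2 and 37.9 in triple null. The groups did not overlap, and triple null library 1 was the lowest. The means were 497 ± 28.2 and 34.3 ± 10.4 RPKM (SD, n = 4 each), 14.5-fold lower in triple null. Its log2 difference of -3.88 ± 0.22 (SE; adjusted p = 1.42e-08 by limma) was the 35th most negative.

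Apoc3, the inhibitor of triglyceride breakdown, stood at 3562, 5114, 7262 and 4600 RPKM in FoxA3 null and at 17961, 17044, 14359 and 17033 in triple null. All triple null libraries were above all FoxA3 null libraries. The means were 5135 ± 1558 and 16599 ± 1556 RPKM (SD, n = 4 each), 3.23-fold higher in triple null. On the log2 scale Apoc3 differed by 1.74 ± 0.19 (SE; adjusted p = 1.07e-05 by limma), and by 1.11 under quantile normalization. With this rise Apoc3 ranked 12 among all genes by RPKM in each triple null library, against 18 to 24 in FoxA3 null.

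Apoa4 stood at 54.0, 64.3, 54.9 and 79.0 RPKM in FoxA3 null and at 677, 508, 735 and 508 in triple null. The groups were again apart. The means were 63.1 ± 11.6 and 607 ± 117 RPKM (SD, n = 4 each), 9.62-fold higher in triple null. Its log2 difference of 3.24 ± 0.17 (SE; adjusted p = 5.31e-09 by limma) was the 29th most positive. Apoa4 RNA thus moved from a rank between 1059 and 1430 in FoxA3 null to one between 118 and 178 in triple null.

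A gene is called here when its adjusted p is under 0.05 and its log2 difference is at least 1 in size. All 4 members were called in this comparison, 2 in each direction, where 8.11% of all tested genes were called (4.17% higher and 3.95% lower). All 4 also had groups that did not overlap, as did 27.9% of all tested genes. The members were proposed with results of these data known, so the count is a description. Of the genes used as markers of other cell types, the summed RPKM of 8 leukocyte markers was 0.977 to 1.94 in FoxA3 null, with Nkg7 at 0, and 9.35 to 109 in triple null. Most of that sum came from S100a8 (mean 0.788 in FoxA3 null and 32.4 in triple null) and S100a9 (0.309 and 8.71), while Ptprc, the general leukocyte marker, was at 0.231 and 0.265, and Cd3e, Cd79a, Ms4a1 and Nkg7 averaged at most 0.0831. The summed RPKM of 8 endothelial markers was 27.3 to 44.1 in FoxA3 null and 8.67 to 17.7 in triple null. Stellate and fibroblast markers (25.0 to 34.2 and 6.50 to 23.4) were also lower there, while Kupffer and cholangiocyte sums overlapped. The erythroid sum was lower too (35.8 to 50.1 and 10.5 to 29.9), through Alas2 (mean 38.9 in FoxA3 null and 1.04 in triple null). The globin genes were higher in triple null: Hbb-b1 averaged 1.24 and 6.17, Hba-a1 0.790 and 5.72, and Hba-a2 0.635 and 3.42. The part of these markers, and of the lower hepatocyte marker sum in triple null, in the members' differences was not tested. The sum of 8 enterocyte markers, from the intestinal cell type known for Apoa4, was 80.2 to 103 in triple null and 108 to 136 in FoxA3 null. Alpi was at 0 in every library of both groups, and Cdx2 at 0 in all triple null libraries. Fabp2 (mean 58.6 in FoxA3 null and 36.3 in triple null) and Anpep (26.7 and 9.23) were lower, while Cdhr5 was higher (36.6 and 45.8).

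**Figure D1:**
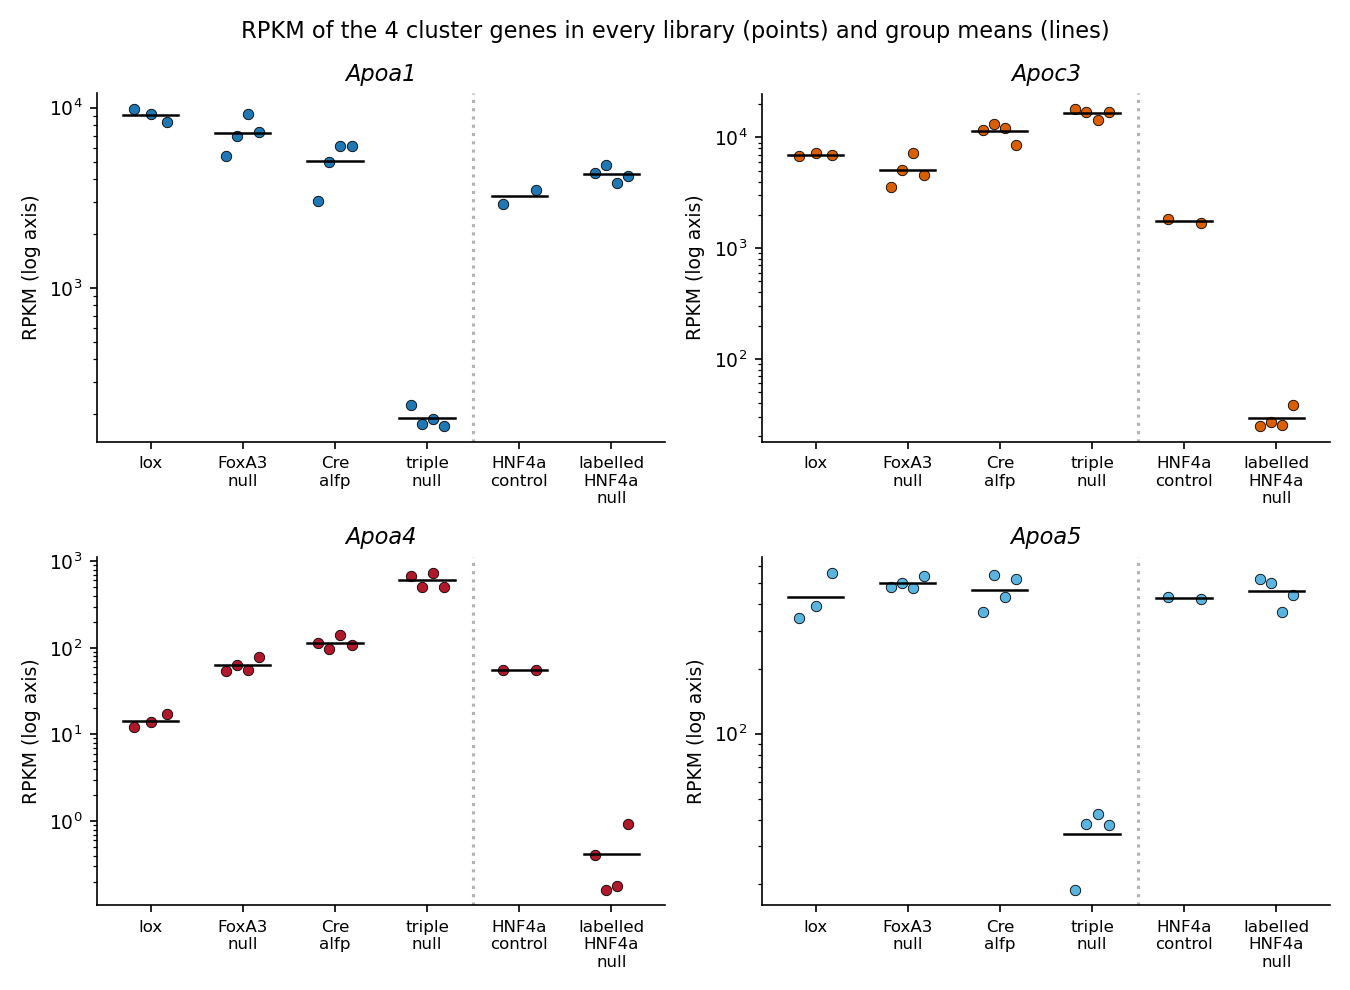
RPKM (log axis) of Apoa1, Apoc3, Apoa4 and Apoa5 in every library of the 6 groups; points are libraries, horizontal lines are group means, and the dotted line separates hepatocytes from whole liver. The triple null libraries are lowest for Apoa1 (171 to 222) and Apoa5 (18.9 to 42.2) and highest for Apoc3 and Apoa4, while the libraries labelled HNF4a null are lowest for Apoc3 (24.7 to 38.6) and Apoa4 (0.162 to 0.937).

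The second comparison asks about the same deletion with FoxA3 present. Of the 4 members, only Apoa4 passed the call rule, and it rose. Apoa1 was lower and Apoc3 higher in every Cre alfp library than in any lox library, by less than the rule asks, and Apoa5 overlapped.

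Apoa4 stood at 12.1, 14.1 and 17.3 RPKM in the 3 lox libraries and at 114, 95.9, 141 and 109 in the 4 Cre alfp libraries. All Cre alfp libraries were above all lox libraries. The means were 14.5 ± 2.60 (SD, n = 3) and 115 ± 18.8 (SD, n = 4), 7.93-fold higher in Cre alfp. Apoa4 thus differed by 2.90 on the log2 scale (limma adjusted p = 4.09e-07).

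Apoa1 stood at 9794, 9272 and 8367 RPKM in lox and at 3019, 5012, 6103 and 6159 in Cre alfp. The groups did not overlap, and Cre alfp library 1 was the lowest. The Cre alfp mean was 55.5% ± 16.0 (SD, n = 4) of the lox mean. The log2 difference of -0.90 passed the adjusted p (0.0349, limma) but not the minimum difference. It passed both, at -1.01, without Cre alfp library 3 and likewise without library 4. For Apoa1 the adjusted p was missed without lox library 1 (0.135), 2 (0.102) or 3 (0.0605) and without Cre alfp library 1 (0.0667) or 2 (0.0604). It was also missed with no filter (0.0957), with only these 2 groups fitted (0.101) and with the replicate block (0.0559).

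Apoc3 stood at 6809, 7197 and 6975 RPKM in lox and at 11788, 13115, 12130 and 8486 in Cre alfp. These groups were apart as well, with Cre alfp library 4 nearest to lox. The log2 difference was 0.68 (limma adjusted p = 0.0695), which misses the threshold and does not show that the levels were equal.

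Apoa5 stood at 343, 389 and 557 RPKM in lox and at 368, 544, 429 and 520 in Cre alfp. The 2 groups overlapped across most of their range. The log2 difference was 0.13 (limma adjusted p = 0.845), and it turned to -0.020 without lox library 1. In total, 1 of 4 members was called, where 2.38% of all tested genes were called (1.29% higher and 1.1% lower). For 3 of the 4 members the groups did not overlap, as for 19.9% of tested genes. Marker sums were apart as well for leukocytes (1.72 to 4.36 in Cre alfp and 1.02 to 1.64 in lox) and enterocytes (66.8 to 95.5 and 98.3 to 126). The hepatocyte marker sum was lower in Cre alfp and also apart (26086 to 31975 and 33884 to 37788). The erythroid sum was also apart (18.3 to 30.8 and 82.7 to 93.2), through Alas2 (mean 14.9 and 84.0). Hbb-b1 (3.94 in Cre alfp and 0.794 in lox) and Hba-a1 (2.70 and 0.801) were higher, while Hba-a2 overlapped (0.229 and 0.203). The part of these markers in the members' differences was not tested.

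Whether the deletion acted differently with and without FoxA3 was tested as the difference between these 2 differences (interaction). FoxA3 status, library set and the Cre used cannot be told apart here. The interaction was -4.33 for Apoa1 (limma adjusted p = 6.13e-07) and -4.01 for Apoa5 (adjusted p = 2.66e-06), so the deletion difference was more negative in the FoxA3-/- set for both. For Apoc3 it was more positive in that set, with an interaction of 1.05 (limma adjusted p = 0.0219). This call was lost under quantile normalization (0.54), with no filter, with the replicate block, and without lox library 2 (1.03), FoxA3 null library 1 (0.89) or Cre alfp library 4 (0.92). The interaction of Apoa4 was 0.34 (adjusted p = 0.391), so its differences of 3.24 and 2.90 were not shown to differ. Thus 3 of 4 members were called, where 6.82% of all tested genes were (3.28% higher and 3.54% lower).

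The 4 genes can also be set against each other within each library, which removes any factor that acts on a whole library. Between FoxA3 null and triple null, the log2 ratio of Apoa1 to Apoc3 went from 0.51 ± 0.15 to -6.45 ± 0.19 (SD, n = 4 each). That of Apoa4 to Apoa5 went from -2.98 ± 0.17 to 4.15 ± 0.65. Of the 6 pairs, 5 had a Benjamini-Hochberg adjusted p of 0.0343 (two-sided exact permutation test, raw p = 0.0286, the smallest that 4 against 4 libraries can give). The pair Apoa1 and Apoa5 had overlapping ratios, 3.83 ± 0.33 in FoxA3 null and 2.48 ± 0.67 in triple null (exact permutation p = 0.0571, adjusted p = 0.0571). Apoc3 and Apoa4, though both higher in triple null, did not keep their ratio, which moved by -1.51 because Apoa4 rose more. Between lox and Cre alfp, 5 of the 6 ratios were apart, all except Apoc3 to Apoa5, but 4 against 3 libraries cannot give a two-sided exact p below 0.0571 (adjusted 0.0686).

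**Figure D2:**
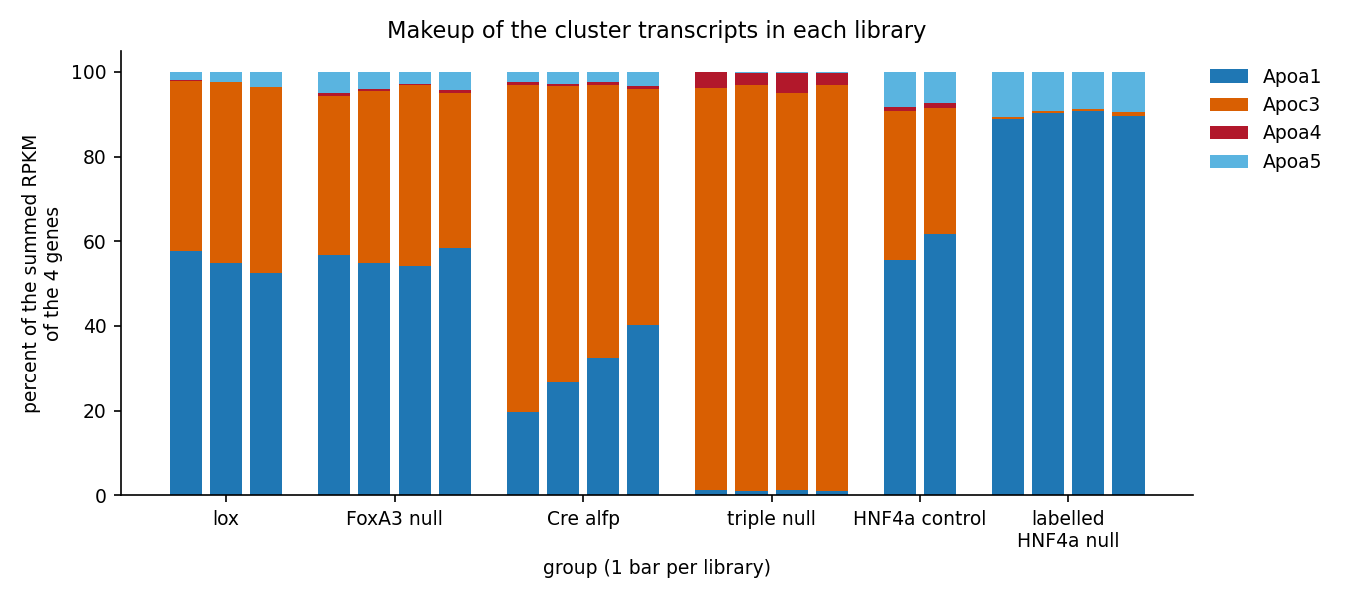
Percent of the summed RPKM of the 4 genes contributed by each gene, with 1 bar per library, grouped by the 6 groups. Apoa1 made up 52.6 to 57.8% in lox and 0.961 to 1.22% in triple null, where Apoc3 made up 93.7 to 96.0%, while Apoa1 made up 88.9 to 90.7% in the libraries labelled HNF4a null.

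The summed RPKM of the 4 members was 16582 ± 578 in lox (SD, n = 3), 12909 ± 3099 in FoxA3 null, 17033 ± 2023 in Cre alfp and 17429 ± 1500 in triple null (n = 4 each). Its range in FoxA3 null, 9463 to 16998, overlapped with that in triple null, 15323 to 18879. The shares of Apoa1 and Apoc3 separated Cre alfp and triple null from each other and from the other hepatocyte groups. Between lox and FoxA3 null these shares overlapped. Apoa1 gave 55.1% ± 2.60 of the sum in lox and 56.1% ± 1.92 in FoxA3 null, 29.8% ± 8.73 in Cre alfp and 1.09% ± 0.131 in triple null. Apoc3 gave 42.2% ± 1.87, 39.4% ± 2.78, 66.8% ± 9.08 and 95.2% ± 1.06 in the same groups. Apoa4 gave 0.0879% in lox and 3.52% ± 0.914 in triple null, and Apoa5 gave 2.61% and 0.201% in these groups. The Cre alfp libraries spread most, with an Apoa1 share between 19.7% and 40.3%.

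Loss of FoxA3 alone is seen between FoxA3 null and lox, which also crosses the library sets. Apoa4 rose, by 2.04 on the log2 scale or 4.35-fold in mean RPKM, with the groups apart at 54.0 to 79.0 and 12.1 to 17.3 RPKM. The other members were not called: the log2 difference was -0.37 for Apoa1 and -0.49 for Apoc3, both above 0 under quantile normalization (0.19 and 0.10), and 0.24 for Apoa5. All 4 members in FoxA3 null except Apoa4 overlapped with lox. Of the marker sums, only that of erythroid markers was apart, at 35.8 to 50.1 in FoxA3 null and 82.7 to 93.2 in lox. It was carried by Alas2 (mean 38.9 and 84.0), and its part in the members' differences was not tested. The 1 called member of 4 stands beside 7.19% of all tested genes called (3.63% higher and 3.56% lower; 418 and 409 genes, but 301 and 528 with libraries scaled to their medians), and 40.1% of tested genes had groups that did not overlap. By mean level, Apoa4 thus ranked lox, FoxA3 null, Cre alfp and triple null from low to high, at 14.5, 63.1, 115 and 607 RPKM, and neighbours in this order did not overlap.

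The series' design also sets the triple null against lox and against Cre alfp, both of which cross the library sets and share the triple null libraries with the first comparison. Against lox, Apoa1 and Apoa5 had log2 differences of -5.59 and -3.64, and Apoc3 and Apoa4 of 1.24 and 5.29; all 4 were called, where 13.5% of tested genes were (7.72% higher and 5.81% lower; in 46.3% the groups did not overlap). The 888 higher and 668 lower genes became 679 and 827 with libraries scaled to their medians. Apoa4 was 41.8-fold higher in mean RPKM than in lox. Against Cre alfp, Apoa1 (-4.69), Apoa5 (-3.76) and Apoa4 (2.38) were called, where 10.3% of tested genes were (5.26% higher and 5.03% lower; in 39.6% the groups did not overlap). Here 605 higher and 579 lower genes became 460 and 701 under that scaling. Apoc3 differed from Cre alfp by 0.56, which passed the adjusted p (0.0283, limma) but not the minimum difference. Endothelial marker sums were 8.67 to 17.7 in triple null, 27.7 to 52.4 in lox and 20.1 to 71.1 in Cre alfp. In that order, leukocyte sums were 9.35 to 109, 1.02 to 1.64 and 1.72 to 4.36. Hepatocyte sums were 15304 to 20743, 33884 to 37788 and 26086 to 31975. Cholangiocyte and erythroid sums were also lower than in lox, the latter through Alas2, while Hbb-b1 was higher (mean 6.17 against 0.794). Their part was not tested.

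For triple null against FoxA3 null, the authors' deposited table lists log2 fold changes of -5.28 for Apoa1, -3.93 for Apoa5, 1.62 for Apoc3 and 3.37 for Apoa4. For triple null against Cre alfp, the authors' deposited table lists Apoc3 at 0.38 with an adjusted p of 0.0520, computed here from the unadjusted p in the table.

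In the livers labelled HNF4a null Apoc3 fell to 1.64% of the control mean, and Apoa4 stood at 0.754% of it. Apoa1 and Apoa5 were not called in either direction. This comparison uses whole liver with only 2 controls, and the median of all tested genes was itself 0.34 higher on the log2 scale in the libraries labelled HNF4a null.

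Apoc3 stood at 1846 and 1690 RPKM in the 2 controls and at 24.7, 26.9, 25.5 and 38.6 in the 4 libraries labelled HNF4a null. The groups were far apart, and the library with barcode TAGCTTA was the highest of the 4. The mean of the labelled null group was 1.64% ± 0.369 (SD, n = 4) of the control mean, 61.1-fold lower. The log2 difference was -5.91 (limma adjusted p = 2.91e-06).

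Apoa4 stood at 55.5 and 56.1 RPKM in the controls and at 0.405, 0.162, 0.178 and 0.937 in the libraries labelled HNF4a null. All 4 were under 1 RPKM. Since Apoa4 passed the filter in liver through the controls alone, it could differ in 1 direction only, and its difference is given as a description with no test. On the log2 scale it was -5.35 with 1 added to each RPKM, -6.98 with 0.1 added and -3.49 with 5 added. The authors' deposited table lists -7.20 for Apoa4 and -6.33 for Apoc3.

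Apoa1 stood at 2928 and 3512 RPKM in the controls and at 4365, 4826, 3807 and 4176 in the libraries labelled HNF4a null. The labelled null libraries were all above the controls. The log2 difference of 0.42 (limma adjusted p = 0.0611) was close to the shift of 0.34 over all genes. The authors' deposited table lists 0.00092 for Apoa1.

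Apoa5 stood at 431 and 423 RPKM in the controls and at 522, 498, 365 and 441 in the libraries labelled HNF4a null. The groups overlapped. The log2 difference was 0.08 (limma adjusted p = 0.675) and turned to -0.18 when libraries were scaled to their medians; the authors' deposited table lists -0.32 for Apoa5 (adjusted p = 0.0568). Leaving Apoa4 aside for its filter, Apoc3 was the 1 member called, where 14.5% of tested genes were called (8.58% higher and 5.95% lower). That split depended on scaling: 1067 genes were higher and 740 lower as deposited, 510 and 983 with libraries scaled to their medians, and 584 and 900 after quantile normalization. With 2 controls, the groups did not overlap for 67.0% of tested genes; of the members other than Apoa4, this held for Apoa1 and Apoc3.

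Within libraries, the log2 ratio of Apoa1 to Apoc3 was 0.86 ± 0.28 in the controls (SD, n = 2) and 7.18 ± 0.33 in the libraries labelled HNF4a null (n = 4). The 3 ratios without Apoa4 were apart between the groups, but 4 against 2 libraries cannot give a two-sided exact p below 0.133. The summed RPKM of the cluster was 5471 ± 298 in the controls and 4779 ± 483 in the labelled null group. Apoc3 went from 32.4% to 0.611% of this sum, and Apoa1 from 58.7% to 89.9%. The summed RPKM of 9 hepatocyte markers was 23714 to 24130 in the controls and 14252 to 16319 in the labelled null group, and that of 8 cholangiocyte markers was 15.2 to 15.5 and 125 to 223. Sums of 8 markers each were also higher in the labelled null group for Kupffer cells and macrophages (116 to 151 against 97.5 to 107), endothelium (171 to 195 against 140 to 158), stellate cells and fibroblasts (132 to 151 against 106 to 119) and leukocytes (6.91 to 19.1 against 3.49 to 4.49). The sum of 8 enterocyte markers was lower (52.6 to 69.2 against 86.2 to 91.4), with Alpi and Cdx2 at 0 in all 6 libraries. Its members went both ways. Fabp2 (mean 0.692 against 60.5 in controls) and Cdhr5 (0.443 against 12.7) were lower, while Anpep (60.7 against 15.5) and Vil1 (0.290 against 0.114) were higher. The sum of erythroid markers overlapped (187 to 567 against 291 to 326). The part of all these markers in the members' differences was not tested.

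The flanking genes were set beside the members as a description. Of the 5 protein-coding genes on each side, 8 of 10 could be tested. On the Apoa1 side these were Pcsk7, Tagln, Sidt2, Pafah1b2 and Sik3. On the Apoa5 side they were Zpr1, Bud13 and Cadm1, while 4931429L15Rik fell under the filter and Gm4791 had no row. Between triple null and FoxA3 null, Cadm1, a cell adhesion gene and the farthest on its side, was the 1 of 8 called, at -1.04, where 8.11% of all tested genes were called. Zpr1 (listed as Zfp259), next to Apoa5, differed by -0.84 (limma adjusted p = 0.0344), under the minimum difference, at 49.3 RPKM in FoxA3 null and 27.5 in triple null. Sik3, next to Apoa1, differed by 0.09 (adjusted p = 0.816). None of the 8 was called between Cre alfp and lox or in the livers labelled HNF4a null, where 2.38% and 14.5% of all tested genes were, so 0 of 8 is near the background. The median difference of the 8 was 0.05 between triple null and FoxA3 null, where that of all tested genes was also 0.05.

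**Figure D3:**
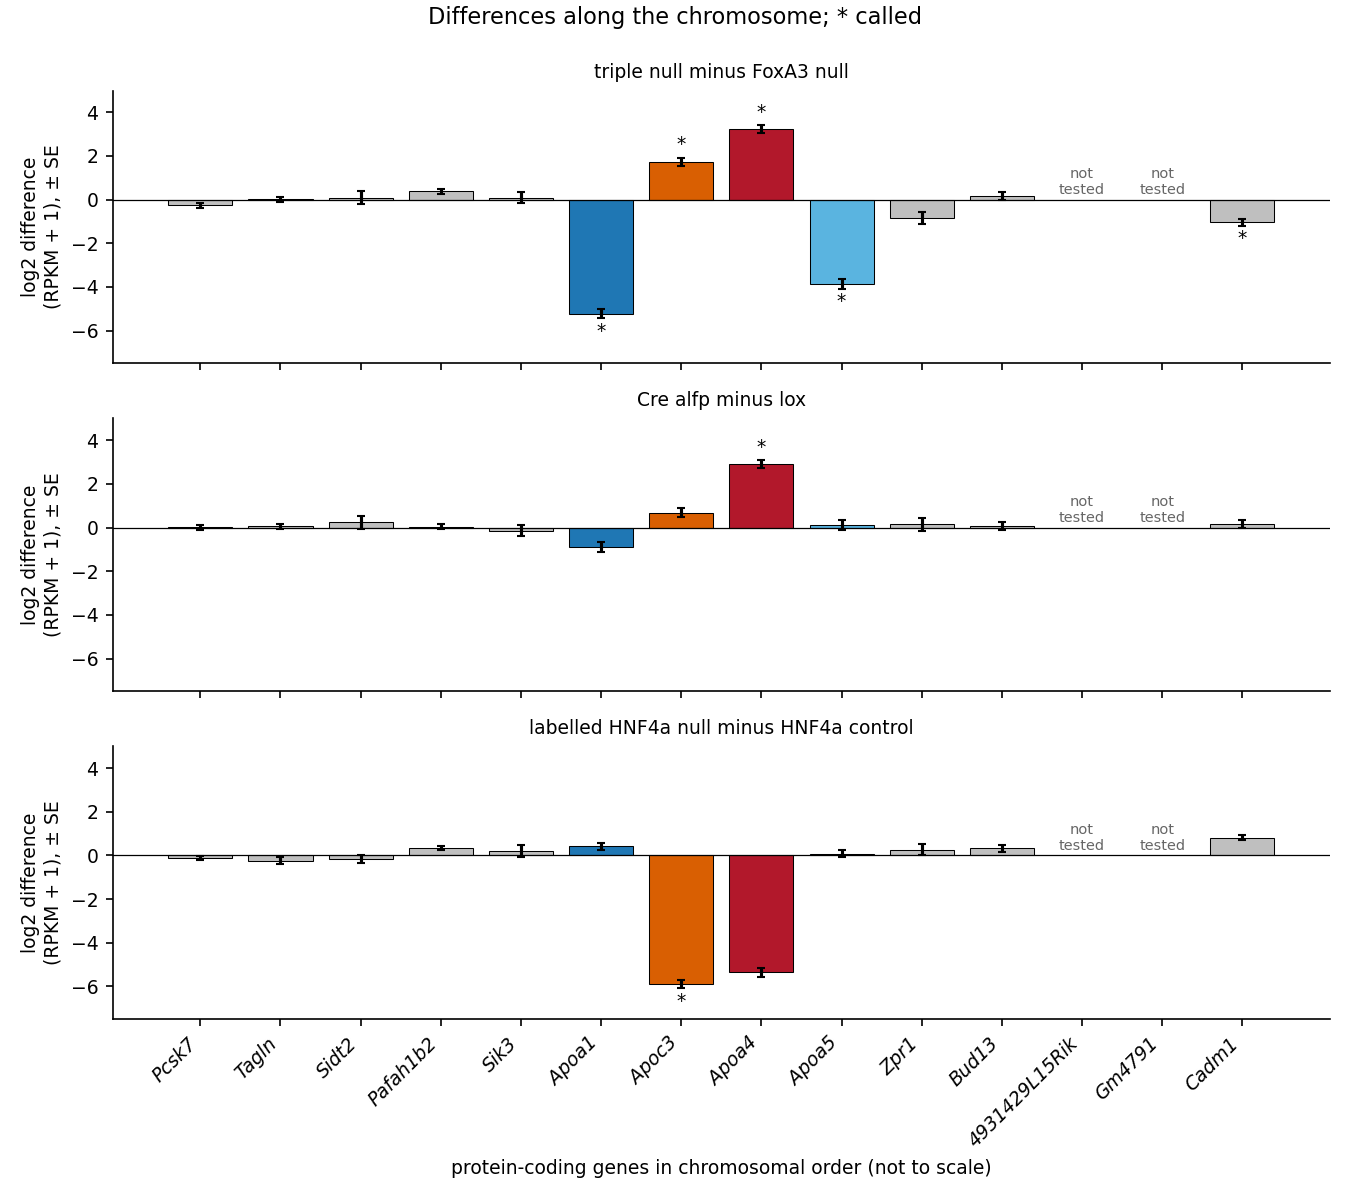
Difference on the scale of log2(RPKM + 1), with its standard error, for the 4 members (coloured) and 10 flanking protein-coding genes (grey) in chromosomal order, not to scale, in 3 comparisons; stars mark called genes, with none given to Apoa4 in liver, which is shown as a description. In the top panel Apoa1 (-5.23) and Apoa5 (-3.88) point down and Apoc3 (1.74) and Apoa4 (3.24) point up, in the bottom panel only Apoc3 (-5.91) and Apoa4 (-5.35) point far down, and the tested flanking genes stay between -1.04 and 0.82.

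Other genes of lipoprotein metabolism were followed as 2 lists. Of 11 HDL genes, 10 were tested in hepatocytes, and between triple null and FoxA3 null 0 rose and 1 fell, near the 4.17% higher and 3.95% lower of all tested genes. The 1 gene was Lcat, which encodes the enzyme that Apoa1 protein activates, at -1.40. The median of the list was -0.21, against 0.05 for all tested genes. Apoa2, the other major HDL protein, differed by -0.17 (limma adjusted p = 0.380), at 19259 RPKM in FoxA3 null and 16986 in triple null. In the libraries labelled HNF4a null, 6 of 11 HDL genes fell and 2 rose, beside 5.95% lower and 8.58% higher of all tested genes, and the median was -1.45, against 0.34 for all tested genes. The 6 include Lipg, endothelial lipase, which passed the filter through the controls alone and could only fall. Those that fell included Apoa2 (-6.12), Apom, an HDL protein that binds sphingolipid (-6.05), and Lipc, hepatic lipase (-4.26). Scarb1, the HDL receptor, and Abcg1, a sterol exporter, rose by 1.32 and 1.38.

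Of 15 genes of triglyceride-rich lipoproteins, 3 rose and 1 fell between triple null and FoxA3 null, beside 4.17% higher and 3.95% lower of all tested genes, with a median of -0.06 against 0.05. Apoc2, the cofactor that lipoprotein lipase needs, rose by 2.94. Lpl, that lipase itself, rose by 2.02. Vldlr, a receptor for such particles, is counted among the 3 at 1.19, but it was at most 0.672 RPKM in FoxA3 null and 0.515 in lox and passed the filter through Cre alfp and triple null alone, so it could hardly be called lower in either deletion comparison. Angptl4, a lipase inhibitor, fell by 1.01. Between Cre alfp and lox, 2 of the 15 were called higher, Lpl at 2.24 and Vldlr, with that limit, at 2.38, and 0 lower (1.29% higher and 1.1% lower of all tested genes). In the libraries labelled HNF4a null, 5 fell and 3 rose (5.95% lower and 8.58% higher of all tested genes), with a median of -0.08 against 0.34. Apob, the structural protein of these particles, fell by 3.13, Mttp, which loads lipid onto it, by 2.76, and Apoc2 by 3.42. Apoc4 (-1.17) fell as well. Angptl8 (listed as Gm6484), a lipase regulator, rose by 3.86 and Lrp1, a receptor for particle remnants, by 1.33. The third, Vldlr, was at 0.614 and 0.870 RPKM in the controls and 8.69 to 11.1 in the labelled null group; it passed the filter through the latter alone and could only rise. Apoc2 was thus higher in triple null and lower in the libraries labelled HNF4a null, as were Apoc3 and Apoa4.

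**Figure D4:**
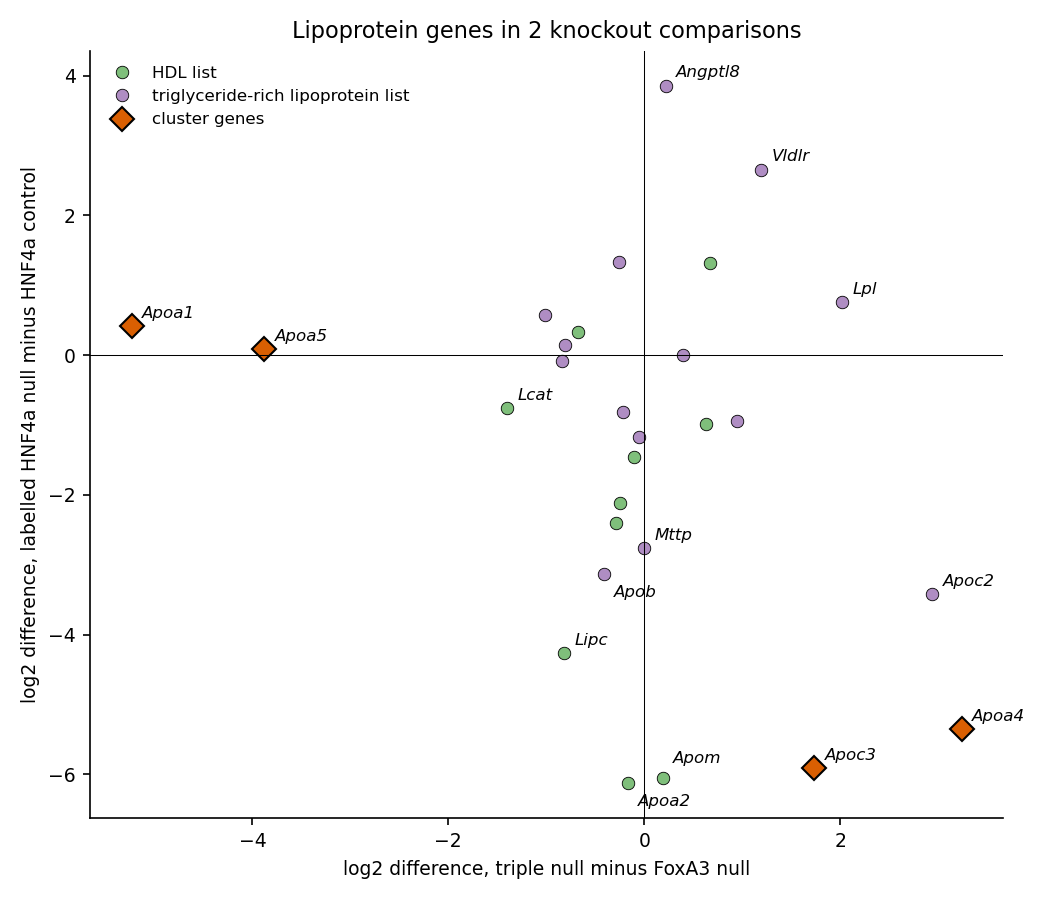
Difference on the scale of log2(RPKM + 1) between triple null and FoxA3 null (horizontal) and between the libraries labelled HNF4a null and controls (vertical) for the 4 cluster genes (diamonds) and for genes of the HDL list and the triglyceride-rich lipoprotein list (circles; not every listed gene is shown). Apoa1 and Apoa5 lie far left near the horizontal zero line, and Apoc3, Apoa4 and Apoc2 (2.94, -3.42) lie at the lower right.

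Among the listed regulators, 3 fell between triple null and FoxA3 null, beside 3.95% lower of all tested genes; Foxa1 and Foxa2 are the genes deleted. Besides the targeted Foxa1 (-1.13) and Foxa2 (-3.39), Nr5a2, a nuclear receptor of bile acid and cholesterol genes, fell by 1.00. Hnf4a itself differed by -0.13 (limma adjusted p = 0.658), with 117 to 205 RPKM in FoxA3 null and 116 to 195 in triple null. Ppara, a fatty acid receptor known to act on this cluster, differed by 0.38 (adjusted p = 0.432) there. In the libraries labelled HNF4a null, 1 of 19 tested regulators fell and 1 rose, beside 5.95% lower and 8.58% higher of all tested genes. Ppara fell by 2.18, and Hnf4a rose by 2.09. Creb3l3, a liver factor known to act on Apoa4, differed by -0.75 between triple null and FoxA3 null, which passed the adjusted p (0.000357, limma) but not the minimum difference.

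Across all 6 groups, Apoa1 ranked lox, FoxA3 null, Cre alfp, the labelled HNF4a null group, HNF4a control and triple null from high to low. Its first 3 groups each overlapped with the next, and triple null was apart from all. Apoa5 was at 427 to 497 RPKM on average in 5 of the 6 groups, which overlapped in this order, and at 34.3 in triple null. Apoc3 ranged from 16599 in triple null to 28.9 in the labelled HNF4a null group. Apoa4 ranged from 607 in triple null to 0.421 in the labelled HNF4a null group.

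Genes with the most similar profile were found by the root mean square difference between profiles of log2(RPKM + 1), each centred on its own mean over the 21 libraries, among 9078 genes. Between members this distance was 0.71 for Apoa1 and Apoa5, 1.48 for Apoc3 and Apoa4, and 3.98 to 4.35 for the 4 pairs across. Nearest to Apoa1 were Pemt (0.48), an enzyme of phosphatidylcholine synthesis, Serpina10 (0.52), a coagulation inhibitor, and C8b (0.65), a complement chain. Pemt, for example, averaged 445 RPKM in FoxA3 null and 7.66 in triple null, and 255 and 282 in HNF4a control and the labelled null group. Nearest to Apoa5 were Apof (0.32), another apolipoprotein, Itih1 (0.47) and Ambp (0.51), both of the inter-alpha inhibitor system. Nearest to Apoc3 were Cyp2d26 (0.57), F12 (0.64), coagulation factor XII, and C8a (0.69). Nearest to Apoa4 was Apoc2 (0.88), followed by Mup10 and Cyp4a12a (both 1.13). The groups set these profiles, so likeness here says no more than that levels moved together over these libraries.

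The series' design also sets the triple null beside hepatoblasts, the fetal liver progenitors, and newborns, for which only the authors' comparisons were used. Against adult hepatocytes, the authors' deposited table for hepatoblasts lists all 4 members as lower: Apoc3 at -7.51, Apoa5 at -4.63, Apoa1 at -3.81 and Apoa4 at -1.88 on the log2 scale, with adjusted p-values of 6.81e-12 (Apoa4) or less. In newborns, the authors' deposited table lists Apoa1 at the adult level (adjusted p = 0.997), Apoa5 at -0.96, Apoc3 at -5.38 and Apoa4 at 2.25. For triple null against hepatoblasts, the authors' deposited table lists Apoc3 at 8.58, Apoa4 at 6.70, Apoa1 at -1.97 and Apoa5 at 0.74 (adjusted p = 0.195). By these values the triple null level of Apoa1 lay below that of hepatoblasts, whereas Apoc3 lay far above it. The libraries used as the adult reference are not stated.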

How the data were processed

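The authors deposited RPKM values for all RNA libraries in 1 matrix. The submitters' processing notes name Cufflinks 2.2.1, SAMtools, DESeq2 and the build mm9, without roles; the aligner is not given in the sources used here. By their names, 21 columns of the matrix could be tied to samples or groups here; 9 further columns could not and were left out. HNF4a columns carry barcodes in place of replicate numbers. RPKM were taken as log2(RPKM + 1) and tested with limma 3.58.1 in R 4.3.3 (moderated variance with a trend), in 1 fit of 15 hepatocyte libraries (11500 genes that reached an RPKM of 1 in 3 or more libraries) and another of 6 liver libraries (12434 genes, 2 or more libraries), with Benjamini-Hochberg adjustment over all tested genes. The fit was checked on simulated data. Ratios between members were tested by exact permutation in SciPy 1.17.1. The log2 fold changes and p-values of the authors' deposited tables were copied; 1 table's sign was turned. Genes named besides the members and their flanking genes were list genes called in a main comparison, a few list genes given for context, and the 3 nearest profiles per member. Members, lists, motifs and the rule for named genes were chosen with earlier results of these data known. Alternatives were other pseudocounts (0.1 and 5), filters, scalings and fits, a replicate block, and leaving out each library. Peak lists and chromatin samples were not analysed here. Results on some listed genes are not reported here.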

Additional observations from a re-analysis of the deposited data

Results flagged for a closer look

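The deletion of FoxA1 and FoxA2 gave different differences in the FoxA3-/- libraries and in those with FoxA3 for 3 members, by the test of the difference itself (limma); FoxA3 status, library set and the Cre used cannot be told apart. The interaction was -4.33 for Apoa1, -4.01 for Apoa5 and 1.05 for Apoc3, on the scale of log2(RPKM + 1). The Apoc3 call was lost under 6 alternatives: 3 in which 1 library was left out, quantile normalization, no filter and the replicate block.

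In the group labelled HNF4a null, the library with barcode TAGCTTA had an Apoc3 value of 38.6 RPKM, far from the other 3 at 24.7 to 26.9. The same library also had the highest Apoa4 value, 0.937 RPKM. Of 16 sets of 4 libraries (a member in a group) tested for such a gap, 1 showed it, and chance alone gives about 1 in 20.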

How the results depend on the processing

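Over 28 member results, 484 of 498 values under an alternative kept their direction and their side of the call rule. The exceptions follow; the cause was not tested. Without a minimum difference, Apoa1 between Cre alfp and lox (-0.90) and Apoc3 between triple null and Cre alfp (0.56) were called. Leaving out 1 library at a time gave -1.01 to -0.67 for this Apoa1 result, -0.020 (without lox library 1) to 0.33 for Apoa5 between Cre alfp and lox, and 0.89 to 1.23 for the Apoc3 interaction. That interaction was also lost without a filter (1.05, adjusted p = 0.186) and under quantile normalization (0.54, adjusted p = 0.0755); over all its alternatives it ranged from 0.54 to 1.23. Quantile normalization turned Apoa1 (0.19) and Apoc3 (0.10) between FoxA3 null and lox, and median scaling turned Apoa5 in the livers labelled HNF4a null (-0.18). The Apoc3 to Apoa4 ratio there turned from -0.55 to 1.03 with a pseudocount of 0.1. Apoa4 in these livers could not be fitted without either control library, since it then fell under the filter.

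Replicate numbers did not pair the samples: same-numbered libraries correlated at -0.36 to 0.12 and none correlated best with its own number. With the replicate block the Apoc3 interaction was 1.00 (adjusted p = 0.0438), just under the minimum difference.

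Counts of genes called were, with a pseudocount of 5 and with no minimum difference: 505 and 3413 (from 933) for triple null against FoxA3 null, 141 and 628 (from 274) for Cre alfp against lox, 441 and 1658 (from 784) for the interaction, 354 and 4001 (from 827) for FoxA3 null against lox, 823 and 4891 (from 1556) for triple null against lox, 598 and 4743 (from 1184) for triple null against Cre alfp, and 791 and 6569 (from 1807) for the livers labelled HNF4a null. FoxA3 null against lox had 1303 calls with a pseudocount of 0.1. Cre alfp against lox had 182 calls when only those groups were fitted, and 177 to 284 when 1 library was left out, with 177 without lox library 1. The depth is unknown, so the precision of values under 1 RPKM cannot be given.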

Other observations

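In triple null library 1 the Apoa1 value was the highest of its group (222 RPKM) and the Apoa5 value the lowest (18.9 RPKM). In the Cre alfp group, Apoa1 made up 19.7% of the cluster's summed RPKM in the library with the lowest share and 40.3% in that with the highest, while Apoa5 made up 2.28 to 3.40%.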
